A study of Mus musculus with 47 samples.

Results

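The chromatin of E1/E2-KO male liver was described by crossing the 3 peak lists of that group, H3K27ac, H3K4me1 and H3K27me3, with each other on the autosomes. The 3 lists stand for 12 of the 47 samples of the series and are 3 of its 12 lists. Every peak on chromosomes 1 to 19 was kept, which gave 55055 of 55930 H3K27ac peaks, 67161 of 67913 H3K4me1 peaks and 15565 of 15603 H3K27me3 regions. The mice carried the genotype given as Ezh1-/-, EZH2f/f, AC+. They lacked Ezh1 in every cell and lost Ezh2 only where the albumin promoter drives Cre (AC), that is in hepatocytes, so the other cells of the liver kept Ezh2. All were males killed at an age of 7 weeks, and 4 livers were used for each mark. Chromatin was precipitated with 3 µg of antibody per 15 µg of chromatin for H3K27ac, 1.2 µg per 15 µg for H3K4me1 and 2 µg per 10 µg for H3K27me3. The authors joined the reads of the 4 livers before calling peaks, so each mark has 1 list without replicates, without a score and without a known depth, and no test across livers was possible. In whole liver a mark missing from a share of the cells and a weaker mark in all cells cannot be told apart, and an overlap of lists does not show that marks sat in the same cell or on the same allele. Loss of Ezh1 and Ezh2 could not be checked from peak lists. The tissue label could, since H3K27ac lay at the start of 25 of 28 genes for hepatocyte products (52.6% over all genes). The mark lay at 1 of 17 Kupffer cell marker starts. Marker lists of other cells lay between these, at 11 of 22 endothelial, 6 of 14 cholangiocyte, 6 of 21 stellate and 1 of 14 lymphocyte starts.

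H3K27me3 is laid down by Polycomb repressive complex 2, whose catalytic subunit is Ezh1 or Ezh2, and it covers silent genes in broad blocks, most of all developmental regulators with CpG islands. H3K27ac marks active promoters and enhancers and uses the same lysine as H3K27me3, so a single histone tail cannot carry both. H3K4me1 lies at enhancers, active or not, and around promoters, and H3K4me1 without H3K27ac is commonly called a primed or, where H3K27me3 is present, a poised state.

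Examples of 3 kinds of site are shown first. The first set was chosen to be CpG-rich, so its CG counts do not compare the kinds. Each sequence is a stretch of 200 bases of a called peak that holds no annotated exon, in the mm9 genome, written 5′ to 3′ on the strand of the gene, with every CG dinucleotide in capitals. The first 3 come from the widest CpG-rich H3K4me1 peaks without H3K27ac inside H3K27me3 at developmental factor genes. They are Neurog2, a proneural bHLH factor (chr3:127336376-127336575, plus strand, 17 CG), Eomes, a T-box factor (chr9:118387130-118387329, plus strand, 7 CG), and Dlx2, a homeobox factor (chr2:71384812-71385011, minus strand, 22 CG).
Neurog2: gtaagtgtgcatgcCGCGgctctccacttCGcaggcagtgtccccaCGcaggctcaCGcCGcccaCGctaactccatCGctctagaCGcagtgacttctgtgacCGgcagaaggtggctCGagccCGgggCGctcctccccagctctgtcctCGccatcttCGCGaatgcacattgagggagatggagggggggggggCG
Eomes: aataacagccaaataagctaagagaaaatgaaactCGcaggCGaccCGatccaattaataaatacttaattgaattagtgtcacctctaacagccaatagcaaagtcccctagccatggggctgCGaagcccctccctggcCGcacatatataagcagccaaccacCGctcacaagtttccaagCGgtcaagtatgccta
Dlx2: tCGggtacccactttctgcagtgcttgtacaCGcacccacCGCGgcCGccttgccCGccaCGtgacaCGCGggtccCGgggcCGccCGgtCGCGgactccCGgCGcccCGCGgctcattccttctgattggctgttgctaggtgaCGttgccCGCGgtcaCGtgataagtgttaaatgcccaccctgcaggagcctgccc
The next pair comes from wide H3K27ac peaks wholly inside H3K27me3 at hepatocyte transcription factor genes. They are Nr5a2, an orphan nuclear receptor (chr1:138844418-138844617, minus strand, 5 CG), and Onecut1, also known as HNF6 (chr9:74711209-74711408, plus strand, 12 CG).
Nr5a2: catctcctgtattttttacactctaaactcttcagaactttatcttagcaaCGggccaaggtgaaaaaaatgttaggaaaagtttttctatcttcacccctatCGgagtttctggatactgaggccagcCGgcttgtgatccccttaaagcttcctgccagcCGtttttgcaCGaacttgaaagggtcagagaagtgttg
Onecut1: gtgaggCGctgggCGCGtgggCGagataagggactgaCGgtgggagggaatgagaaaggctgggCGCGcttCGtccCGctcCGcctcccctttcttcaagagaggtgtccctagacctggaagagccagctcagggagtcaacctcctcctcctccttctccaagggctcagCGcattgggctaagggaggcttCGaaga
The last pair shows H3K4me1 peaks with neither H3K27ac nor H3K27me3, at Apoh, which encodes a plasma apolipoprotein (chr11:108259480-108259679, plus strand, no CG), and Rora, a nuclear receptor gene (chr9:68968961-68969160, plus strand, 2 CG).
Apoh: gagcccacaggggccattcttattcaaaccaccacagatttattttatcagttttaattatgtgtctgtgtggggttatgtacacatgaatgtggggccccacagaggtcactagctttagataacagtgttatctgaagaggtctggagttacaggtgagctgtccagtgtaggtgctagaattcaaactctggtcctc
Rora: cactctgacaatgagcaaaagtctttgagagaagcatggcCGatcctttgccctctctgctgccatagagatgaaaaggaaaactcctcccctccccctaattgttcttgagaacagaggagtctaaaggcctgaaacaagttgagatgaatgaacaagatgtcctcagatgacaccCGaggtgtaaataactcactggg

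The H3K27me3 regions of E1/E2-KO male liver covered 749.7 Mb, or 31.3% of the 2394 Mb of known autosomal bases, with a median width of 31600 bp. The activating peaks were short and sparse. H3K27ac covered 31.5 Mb (1.32%, median width 445 bp) and H3K4me1 covered 34.9 Mb (1.46%, median width 437 bp). Of the H3K27me3 bases, 1.36% also lay in an H3K27ac peak, 1.97% in an H3K4me1 peak and 2.75% in either. Because SICER joins marked windows over gaps of up to 2400 bp, an activating peak can sit in an unmarked stretch of a region and still count as inside it.

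All 3 marks met on 4.31 Mb. If the lists had been placed independently of each other, the product of the 3 covered fractions gives 0.144 Mb, so the observed overlap was 29.9 times the expectation. Most of that excess was also seen without H3K27me3, since H3K27ac and H3K4me1 shared 6.88 Mb outside the regions, 21.8 times the expectation of 0.316 Mb. The combinations of H3K27me3 with 1 activating mark were not in excess. H3K27ac with H3K27me3 but no H3K4me1 held 5.87 Mb (0.604 times the expectation), and H3K4me1 with H3K27me3 but no H3K27ac held 10.4 Mb (0.966 times). Read the other way, 28.9% of the bases with H3K27ac alone, 38.5% of the bases with both activating marks and 43.9% of the bases with H3K4me1 alone lay in H3K27me3, against 31.3% of all bases.

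**Figure D1:**
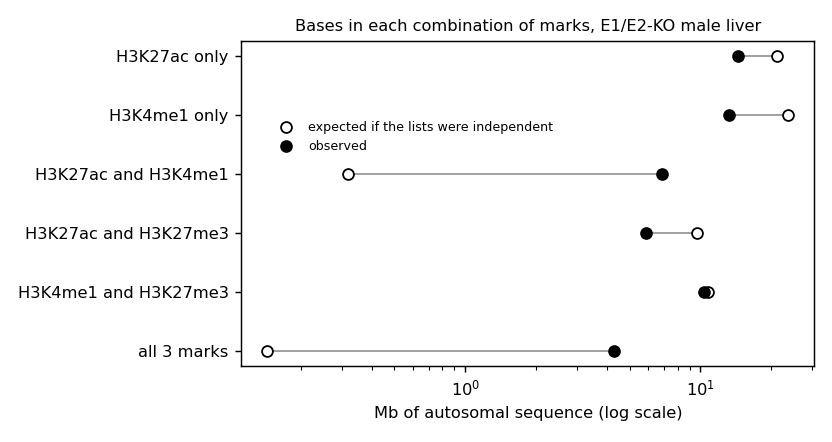
Megabases of autosomal sequence (log axis) in each combination that includes an activating mark. Filled circles are observed and open circles are expected from the product of the covered fractions; the largest gap is for all 3 marks, 4.31 Mb against 0.144 Mb.

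By peaks, 18761 H3K27ac peaks (34.1%, Wilson 95% interval 33.7 to 34.5%) and 27063 H3K4me1 peaks (40.3%, 39.9 to 40.7%) overlapped an H3K27me3 region by at least 1 bp. These intervals reflect counting error alone. They treat each peak as its own observation although neighbours are not independent, so they are too narrow. For peaks of the same widths, 31.7% of all possible positions on the autosomes touch a region. H3K27ac was thus at 1.08 times and H3K4me1 at 1.27 times the share given by random placement. H3K4me1 exceeded the covered share on 19 of 19 autosomes and H3K27ac on 14 of 19.

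The position of a peak relative to gene starts separated the marks. Within 1 kb of a protein-coding transcription start, 42.6% of positions touched H3K27me3. There 35.0% of H3K27ac peaks (34.2 to 35.9%) and 54.4% of H3K4me1 peaks (53.4 to 55.4%) did so, 0.822 and 1.28 times the placement value. Beyond 10 kb, where 29.7% of positions touched a region, the shares were 31.5% for H3K27ac and 36.9% for H3K4me1. From 1 to 10 kb both marks lay near the placement value of 42.4%, at 41.9% and 40.8%. Weighted by these distance classes, the expectation became 34.8% for H3K27ac, which placed it at 0.978 times the expectation in place of 1.08, and 34.4% for H3K4me1, which stayed above it at 1.17 times. The small excess of H3K27ac in H3K27me3 therefore changed direction once distance to a start was taken into account.

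Inside H3K27me3, an H3K27ac peak was joined by H3K4me1 more often than outside, and an H3K4me1 peak by H3K27ac less often. H3K4me1 overlapped 61.9% of the H3K27ac peaks inside (61.2 to 62.5%) and 53.1% of those outside (52.6 to 53.6%). Conversely, H3K27ac overlapped 42.9% of the H3K4me1 peaks inside and 48.4% of those outside, and 15442 H3K4me1 peaks in H3K27me3 had no H3K27ac. As called, H3K27ac peaks had median widths of 438 bp inside and 449 bp outside, and with peaks within 1 kb merged these were 668 and 776 bp. H3K4me1 peaks had a median of 466 bp inside and 420.0 bp outside. Within the regions, H3K27ac peaks with H3K4me1 were wider than those without, at 487 bp against 363 bp, and the order was the same outside, at 513 bp against 383 bp. Peaks that crossed a region edge were few, with 645 for H3K27ac and 716 for H3K4me1, and had medians of 764 and 609.5 bp.

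H3K4me1 peaks inside and outside H3K27me3 differed in CpG content. A peak was called CpG-rich when its CpG dinucleotides reached 0.6 of the number expected from its C and G content. Of the H3K4me1 peaks without H3K27ac, 2811 of 15442 inside H3K27me3 were CpG-rich (18.2%, 17.6 to 18.8%), against 341 of 20706 outside (1.65%, 1.48 to 1.83%). The Neurog2, Eomes and Dlx2 sequences above were picked from the CpG-rich peaks of the first class, and Apoh and Rora lie in the second. Of all H3K27ac peaks, 20.2% were CpG-rich inside and 17.0% outside, but this sum joins opposite orders. With H3K4me1 the shares were 21.8% inside and 13.9% outside, and without it 17.6% and 20.6%. The contrast of H3K4me1 peaks was also present on either side of 1 kb from a start. Within 1 kb of a start, 56.1% of the H3K4me1 peaks without H3K27ac were CpG-rich inside H3K27me3 and 12.7% outside. Farther away the shares were 10.7% (10.2 to 11.3%) and 0.997% (0.867 to 1.15%). H3K27ac peaks with H3K4me1 that lay farther than 1 kb from a start were CpG-rich in 8.66% inside and 2.38% outside, whereas near starts the shares were 64.2% and 61.5%. Those without H3K4me1 had 7.10% and 5.20% farther away and 53.5% and 65.7% near starts.

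**Figure D2:**
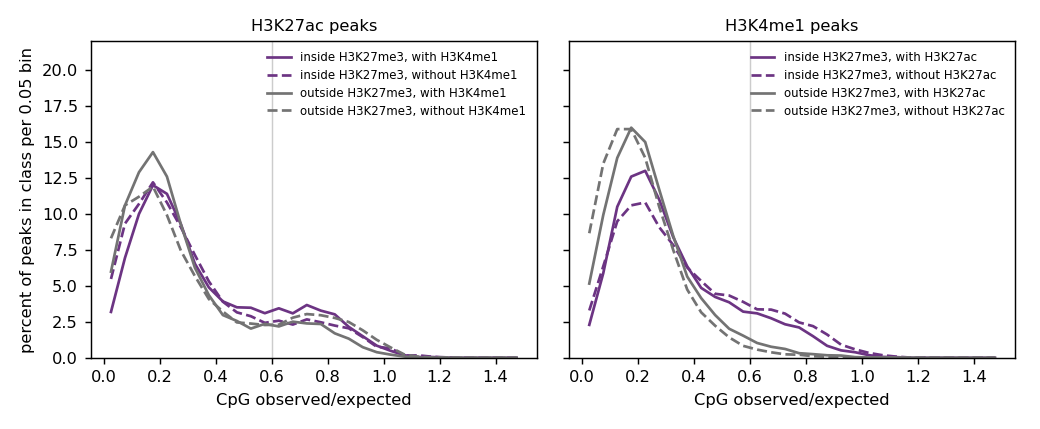
Distribution of CpG observed over expected in H3K27ac peaks (left) and H3K4me1 peaks (right), as percent of the peaks of a class per bin of 0.05, with the CpG-rich limit of 0.6 as a vertical line. Purple lines are peaks inside H3K27me3 and grey lines outside, solid with and dashed without the other activating mark; right of the line the dashed purple curve of H3K4me1 holds 18.2% of its peaks and the dashed grey curve 1.65%.

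Short sequence matches were counted in the 300 bases around the midpoint of each peak, on both strands and beside all 300-base windows of the autosomes. In peaks narrower than 300 bases, the window reached into the sequence beside the peak. The HNF4 letters CAAAGTCCA were in 0.390% of all windows. They were found in 0.629% of the H3K27ac peaks with H3K4me1 inside H3K27me3 (0.501 to 0.790%) and in 0.882% of those outside (0.760 to 1.02%). These intervals overlap. In H3K27ac peaks without H3K4me1 the shares were 0.559% inside and 0.587% outside. For H3K4me1 peaks without H3K27ac the shares were 0.984% inside (0.840 to 1.15%) and 1.29% outside (1.15 to 1.46%). The FOXA letters TGTTTAC, in 4.48% of all windows, were in 4.47% of H3K4me1 peaks without H3K27ac inside and 6.11% outside. These peaks also differed in base composition, with a median of 52.1% G and C inside and 46.1% outside. No match count was adjusted for base composition, and its part in these differences was not tested. The ETS letters CCGGAAGT, which contain a CG, were in 0.188% of all windows, in 1.09% of the H3K27ac peaks with H3K4me1 inside and in 1.38% of those outside. In H3K4me1 peaks without H3K27ac the ETS letters had the opposite order, with 0.421% inside (0.330 to 0.536%) and 0.290% outside (0.225 to 0.373%), intervals that overlap. In those with H3K27ac the shares were 0.628% inside and 0.392% outside, with 95% intervals that do not overlap. A match is a run of letters and not a bound site.

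Of the 15565 H3K27me3 regions, 6114 (39.3%) held both activating marks, 342 (2.20%) H3K27ac only, 2505 (16.1%) H3K4me1 only and 6604 (42.4%) neither. Regions with neither mark were narrower, with a median width of 25200 bp against 42600 bp for those with both, and poorer in G and C, at a median of 41.4% against 45.9%. A protein-coding gene started in 8.99% of the regions with neither mark and in 63.7% of those with both. Of the 2995 regions that held a CpG-rich gene start, 97.4% had an H3K4me1 peak and 82.7% an H3K27ac peak. Of the 9920 regions without a gene start, 36.9% had H3K4me1 and 24.8% had H3K27ac.

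From 10 kb upwards, wider regions held an activating peak more often, while the density of H3K27ac peaks fell with width. H3K27ac was found in 26.1% of the regions of 10 to 20 kb and in 82.2% of those of 200 kb or more, but its density fell from 28.7 to 17.5 peaks per Mb. H3K4me1 kept a more even density, from 35.9 to 31.9 peaks per Mb over the same classes. The 200 regions under 10 kb did not follow the trend of the shares, as 32.5% held H3K27ac and 44.0% H3K4me1, against 26.1% and 34.9% in the class of 10 to 20 kb. They were dense in peaks, with 64.6 H3K27ac and 78.1 H3K4me1 peaks per Mb, and also denser in gene starts than the wider classes, of which the class of 10 to 20 kb had the most at 16.0 per Mb. The 1120 regions (7.20%) with 5 or more H3K27ac peaks, a class set by the count itself and not corrected for width, held 44.7% of the peaks inside.

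**Figure D3:**
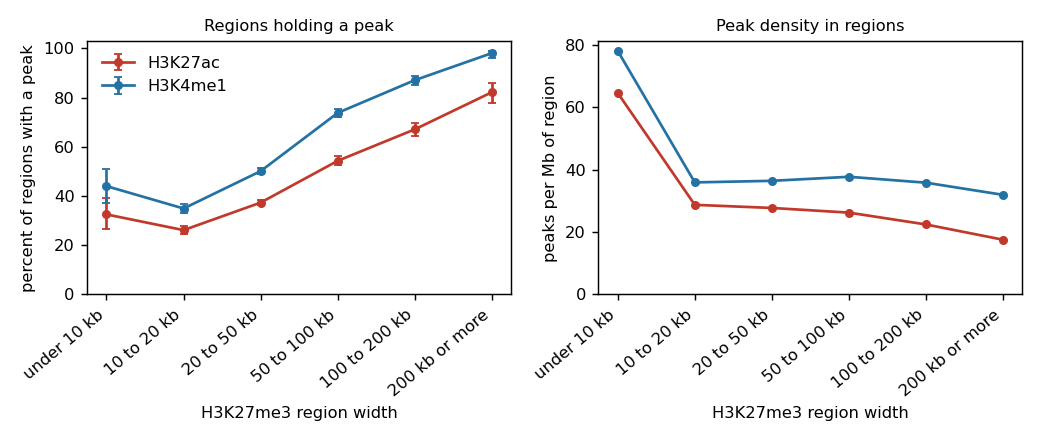
Left, percent of H3K27me3 regions of each width class that hold a peak of H3K27ac (red) or H3K4me1 (blue), with Wilson 95% intervals. Right, peaks per Mb of region; the share with H3K27ac climbs from 26.1% to 82.2% between the classes of 10 to 20 kb and 200 kb or more while its density falls from 28.7 to 17.5 per Mb.

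Within 20 kb of an edge, H3K27ac was densest just outside and was less dense inside than outside. Counted by peak midpoints in steps of 1 kb, its density reached 49.4 per Mb between 1 and 2 kb outside an edge. It was 33.8 per Mb in the first kb inside and 24.6 per Mb between 9 and 10 kb inside. From 10 to 20 kb it lay between 30.4 and 36.0 per Mb outside and between 23.8 and 27.2 per Mb inside. H3K4me1 also had its maximum there, at 44.2 per Mb over 20 kb on either side, but stayed between 34.7 and 40.2 per Mb in the first 20 kb inside. Of the H3K27ac midpoints inside regions, 5.70% (5.38 to 6.05%) lay within 1 kb of an edge against 4.15% of the region bases, and for H3K4me1 the share was 4.55% (4.31 to 4.81%). Over whole regions the density was 24.6 per Mb for H3K27ac and 35.7 per Mb for H3K4me1, against 22.3 and 24.6 per Mb in all sequence outside.

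**Figure D4:**
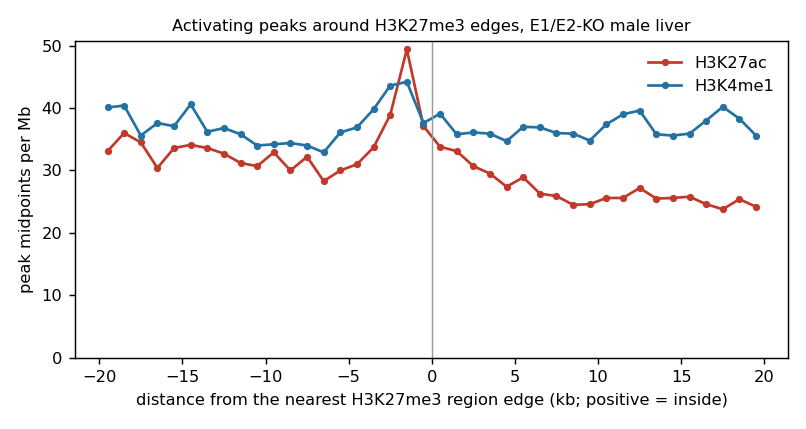
Peak midpoints per Mb of H3K27ac (red) and H3K4me1 (blue) by distance from the nearest H3K27me3 region edge in steps of 1 kb, with positions inside a region to the right of 0. H3K27ac peaks at 49.4 per Mb just outside the edge and is at 24.6 per Mb between 9 and 10 kb inside.

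The 5 regions named next held the most H3K27ac peaks. The first, chr9:60731601-61218000, is 486400 bp wide, contains no protein-coding start and held 37 H3K27ac and 43 H3K4me1 peaks, and its nearest starts are those of Gm9869 and Gm10655. The region at Sulf2, which encodes an extracellular heparan sulfate sulfatase (chr2:165894401-166278000), held 33 H3K27ac peaks. The region at Hes1, a Notch target and transcriptional repressor (chr16:30016801-30324400), also held 33 and includes Cpn2, Gp5 and Lrrc15. The region at Vegfa, the endothelial growth factor, and Mrps18a (chr17:45972801-46253200) held 30. The region at Irs2, an adaptor of insulin signalling, and 3930402G23Rik (chr8:10793601-11020800) held 24 wholly inside. H3K4me1 peaks in these regions ranged from 18 to 43.

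At the other extreme, the widest region without any activating peak was chr17:44530401-44776000, 245600 bp without a protein-coding start between Clic5 and Supt3h. The next 4 were 224800 to 242400 bp wide, and the narrowest of them covers the start of Tnr, a tenascin of the nervous system. Width alone did not set the number of peaks. The widest region of all, 694400 bp at the blood cell factor gene Runx1 (chr16:92639601-93334000), held 7 H3K27ac and 17 H3K4me1 peaks.

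Of 21418 protein-coding genes, 8721 had their transcription start in H3K27me3 (40.7%). H3K27ac lay within 1 kb of 43.8% of these starts (42.8 to 44.9%) and of 58.7% of the starts outside (57.8 to 59.5%). H3K4me1 had the opposite order, at 55.6% inside and 40.8% outside. Covered genes fell into 3 classes. H3K27ac was present at 3822 starts (17.8% of all genes), H3K4me1 without H3K27ac at 1908 (8.91%) and neither at 2991 (14.0%). The share of CpG-rich starts was 65.4% in the first class, 52.4% in the second and 4.65% in the third, so covered starts without an activating peak were almost all CpG-poor. Where H3K27ac was present, H3K4me1 accompanied it at 77.0% of the covered starts (75.6 to 78.3%) and 64.3% of the others.

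The widest H3K27ac peak at a covered start, 3024 bp, lay at Hs3st3b1, a heparan sulfate sulfotransferase gene (mm9 chr11:63732621-63735644). The second, 2878 bp, lay at Cyp8b1, the sterol hydroxylase of cholic acid synthesis (chr9:121822430-121825307), inside a region of 23200 bp that covers the whole gene. B4galnt1, a ganglioside synthesis enzyme (2665 bp), S1pr1, the sphingosine phosphate receptor of endothelium (2644 bp), Dio1, the liver deiodinase of thyroxine (2538 bp), Ihh, a hedgehog ligand (2505 bp), and Ctif, a factor in cap-dependent translation (2477 bp), also ranked among the first 10. Tmem25 and Ttc36 shared a peak of 2624 bp near their neighbouring starts. The region of Ihh, 161200 bp, was the widest of these after that of Ctif, 196000 bp. The first 10 thus included the enzyme genes Cyp8b1 and Dio1 and the signalling genes S1pr1 and Ihh. No gene group was tested in this ranking.

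Gene lists chosen for liver and for Polycomb were then read by the same classes. Over all genes, 40.7% of starts were covered, 17.8% covered with H3K27ac, 8.91% covered with H3K4me1 only and 14.0% covered with neither. Hox genes, the body-axis regulators, had 39 of 39 starts in H3K27me3. H3K27ac lay at 13 of them (33.3%), H3K4me1 without H3K27ac at 14 (35.9%) and neither at 12 (30.8%). The 4 clusters were not alike. In the Hoxa region of 342800 bp, H3K27ac lay at 7 of 11 starts, with the widest peak, 1536 bp, at Hoxa5. In the Hoxb region of 280000 bp no start of 10 had H3K27ac, although Hoxb2 held a peak of 890 bp in its body. Hoxc6, with 1239 bp, had the widest peak at a start of the Hoxc cluster, and Hoxd9, with 802 bp, that of the Hoxd cluster. Hoxd11 and Hoxa9 had H3K4me1 in their spans but no H3K27ac. Other developmental factors gave a similar picture, with 73 of 73 starts covered, 25 with H3K27ac (34.2%), 30 with H3K4me1 only (41.1%) and 18 with neither (24.7%). The widest H3K27ac peaks in covered parts of their spans were at Pax7, a muscle stem cell factor (1459 bp), Lhx6, a LIM homeobox factor (1182 bp), and Tbx18, a T-box factor (1134 bp). Tbx5 and Pax1, wholly covered, had none.

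Transcription factors of hepatocytes were covered almost as often but carried H3K27ac. Their starts lay in H3K27me3 for 19 of 22 genes, and 18 of these had H3K27ac at the start. The list with this class in 81.8% of its members compares with 17.8% of all genes. H3K27ac was frequent in this list in general, and not in H3K27me3 alone. It lay at 21 of the 22 starts (95.5%, against 52.6% of all genes). Wide peaks in their spans lay at Nr5a2 (2998 bp), Onecut1 (2010 bp) and Nr1i3, the constitutive androstane receptor (1945 bp). Cebpa, a leucine zipper factor of hepatocytes, lay in a region of 122400 bp with H3K27ac of 1260 bp, and Foxa2, a forkhead pioneer factor, in one of 182000 bp with 1326 bp. Hnf4a, a central nuclear receptor of hepatocytes, was covered over 89.1% of its length and held 10 H3K27ac peaks, all in H3K27me3. Onecut2 was the covered member without an activating peak at its start, and Nr1h3, Nr1h4 and Rxra had starts outside. H3K4me1 was found at 9 of the 22 starts (40.9%, 23.3 to 61.3%), near the 46.8% of all genes. The secreted and metabolic products of hepatocytes had 14 of 28 starts covered (32.6 to 67.4%, against 40.7% of all genes), 12 of them with H3K27ac (42.9%, against 17.8%). At 13 more, H3K27ac lay outside H3K27me3 (46.4%, 29.5 to 64.2%, against 34.8%). The intervals for covered starts and for H3K27ac outside hold the shares of all genes. Apoh (1743 bp), Apoc3, an inhibitor of lipoprotein lipase (1444 bp), and Rbp4, the plasma retinol carrier (1140 bp), had the widest peaks inside. Fgb, a fibrinogen chain gene covered in full, had no H3K27ac there, whereas Fga in the same region of 36400 bp had a peak of 966 bp.

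Marker genes of other liver cells, which keep Ezh2, fell into different classes. Kupffer cell markers had 10 of 17 starts in H3K27me3 (58.8%, 36.0 to 78.4%), an interval that holds the 40.7% of all genes. None of these 10 had either activating mark, and the same interval lies above the 14.0% of all genes in that class. Marco, a scavenger receptor, Clec4f, a Kupffer cell lectin, and Cd5l, a macrophage protein, were covered in full without any activating peak in their spans. Sfpi1, the PU.1 gene, had 3 H3K27ac peaks in its span, up to 1057 bp, and none at its start. Lymphocyte markers had 12 of 14 starts covered (85.7%) and 9 with neither mark (64.3%), among them Ms4a1 and Cd3e, surface proteins of B and T cells. Gata3, a T cell factor also used elsewhere, was the member with H3K27ac at its start, a peak of 1111 bp. Stellate cell markers had 17 of 21 starts covered (81.0%), 4 with H3K27ac, a share near that of all genes, 7 with H3K4me1 only (33.3%) and 6 with neither (28.6%). In covered parts, Pdgfra and Reln had the widest H3K27ac peaks (1176 and 880 bp), and Lrat, the retinol storage enzyme, had an H3K4me1 peak of 1201 bp and no H3K27ac. Endothelial markers had 11 of 22 starts covered (95% interval 30.7 to 69.3%) and 6 with H3K27ac there (27.3%, 13.2 to 48.2%), intervals that hold the shares of all genes. The 6 included Eng, an endothelial coreceptor (609 bp), Sox17 (526 bp) and Kdr, the Vegf receptor (366 bp). Cholangiocyte markers had 14 of 14 starts covered. H3K27ac lay at 6 of them (42.9%), with 807 bp at Sox9, while Krt7 and Krt19, bile duct keratins, had none in their spans. Another 6 starts had neither mark (42.9%, 21.4 to 67.4%, against 14.0% of all genes). The part of each cell type in these signals was not tested.

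**Figure D5:**
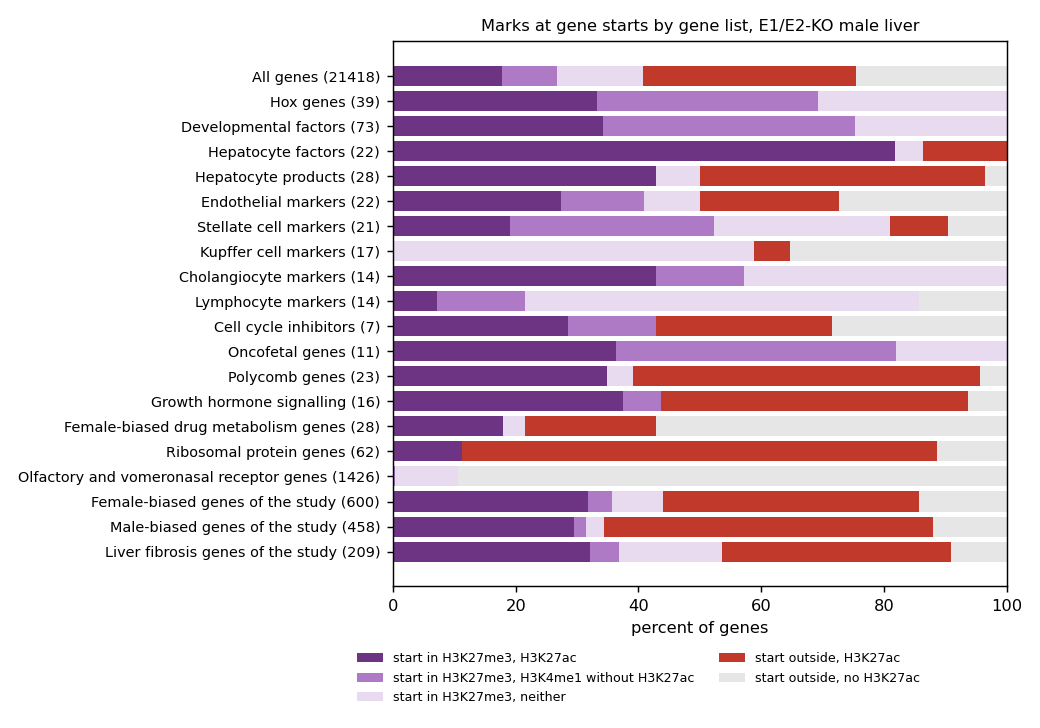
Percent of the genes of each list (number of autosomal genes in brackets) in 5 classes by the marks at their transcription start, with all 21418 genes on top. Hepatocyte factors stand out by the class with H3K27me3 and H3K27ac (81.8%), and the lymphocyte (9 of 14) and Kupffer cell (10 of 17) lists have the highest shares with H3K27me3 and neither activating mark.

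Genes linked to growth and to Polycomb itself were mixed. Cdkn2a and Cdkn2b, neighbouring cell cycle inhibitor genes and classical Polycomb targets, shared a region of 51200 bp and had H3K27ac peaks of 650 and 842 bp at their starts. Cdkn1c, an imprinted inhibitor, had H3K4me1 of 347 bp only, and Cdkn1b had its start outside with H3K27ac of 1049 bp. Oncofetal genes had 11 of 11 starts covered, against 40.7% of all genes. H3K27ac lay at 4 of them (36.4%, 15.2 to 64.6%, an interval that holds the 17.8% of all genes). Igf2bp2 (1711 bp) and Igf2bp3 (810 bp), fetal RNA-binding proteins, were among these, and Igf2, Dlk1 and Lin28b had none in their spans. Afp, the fetal serum protein, had 2 H3K27ac peaks of up to 632 bp within its span. Polycomb genes had 9 of 23 starts covered (39.1%), a share near that of all genes (40.7%). Of those, 8 had H3K27ac (34.8%, 18.8 to 55.1%, against 17.8%). H3K27ac was also more frequent at all starts of this list (91.3%, against 52.6%) and outside H3K27me3 (56.5%, against 34.8%). The widest peak in covered parts was 1848 bp at Cbx2, a subunit of Polycomb repressive complex 1. The starts of Ezh1, Ezh2, Eed and Suz12, which encode the core of the methyltransferase complex, lay outside H3K27me3, each with H3K27ac, of 585, 990, 1882 and 1642 bp.

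Growth hormone sets the sex differences of liver through STAT5. Its signalling genes had 7 of 16 starts covered (43.8%), a share near that of all genes (40.7%). Of those, 6 had H3K27ac (37.5% of the list, 18.5 to 61.4%, against 17.8%). H3K27ac was also more frequent at all starts of this list, at 14 of 16 (87.5%, against 52.6%). At 8 starts H3K27ac lay outside H3K27me3, a share whose 95% interval holds the 34.8% of all genes. Socs1 and Socs3, feedback inhibitors of cytokine signalling, were covered in full and had H3K27ac of 796 and 872 bp at their starts. Cux2, the female-specific repressor, lay for 98.5% of its length in H3K27me3 and held 14 H3K27ac and 13 H3K4me1 peaks in those parts of the gene. Stat5a and Stat5b had starts outside, each with H3K27ac, of 1487 and 1564 bp. A list of female-biased genes, most of them for drug metabolism, had 6 of 28 starts covered (21.4%, against 40.7% of all genes), and 14 of its 28 starts had no mark, against 22.7% of all genes. The study had already reported loss of H3K27me3 in E1/E2-KO liver at members such as Cyp2b9, Sult2a5 and Sult2a6. Low coverage of this list was thus partly known beforehand. The 5 covered starts with H3K27ac (17.9%, against 17.8%) were mostly not of drug enzymes. They were those of Cux2, Ntrk2, a neurotrophin receptor, Prom1, a membrane protein also in the cholangiocyte list, Cyp17a1, a steroid hydroxylase, and Acot3, an acyl-CoA thioesterase. The widest H3K27ac peaks in covered parts lay at Ntrk2 (1115 bp), Cux2 (1002 bp), Cyp17a1 (965 bp) and Acot3 (589 bp). Ptgds, a prostaglandin synthase gene covered in full, had none.

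The sex-biased and fibrosis genes listed by the study were read in the same way. The sex-biased lists were chosen by the study on RNA of its control livers, among genes it counted as expressed in liver. The shares of all genes were not limited to expressed genes. They are therefore not a matched background for H3K27ac at the sex-biased starts. Of 600 matched female-biased genes, 264 had a covered start (44.0%) and 191 had H3K27ac there (31.8%). Of 458 male-biased genes, 34.3% had a covered start and 135 had H3K27ac there (29.5%). Of 209 fibrosis genes, 112 had a covered start (53.6%) and 67 had H3K27ac there (32.1%). Among all genes the shares were 40.7% and 17.8%. At the sex-biased starts H3K27ac was more frequent in general, and not in H3K27me3 alone. It lay at 73.5% of all female-biased and 83.2% of all male-biased starts, against 52.6% of all genes. Outside H3K27me3 the shares were 41.7% and 53.7%, against 34.8%. For fibrosis genes H3K27ac lay at 69.4% of all starts. Outside H3K27me3 their share was 37.3% (31.0 to 44.1%), an interval that holds the 34.8% of all genes. Rusc2 (2460 bp), Trim80, annotated as 4933422H20Rik (2391 bp), and Hpd, an enzyme of tyrosine breakdown (2171 bp), had the widest H3K27ac peaks in covered parts of female-biased genes, and Cyp8b1 and Nlrp12 (2416 bp) those of male-biased genes. Of the lists read here, covered starts were least frequent in 2, as 7 of 62 ribosomal protein genes had a covered start (11.3%), all 7 with H3K27ac, and 151 of 1426 olfactory and vomeronasal receptor genes had one (10.6%), of which 147 had neither activating mark.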

How the data were processed

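The authors sequenced 3 histone marks from 4 E1/E2-KO male livers each, joined the reads of the livers, mapped them to mm9 with Bowtie 2 (2.3.2), and called peaks of the activating marks with MACS2 (2.1.1) and regions of H3K27me3 with SICER (1.1, gap 2400 bp). The deposited lists give positions only (4 columns: chromosome, start, end and name), with no score, p-value or read count, so the depth is unknown and no peak could be ranked by strength. The 9 lists of other groups were not used.

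From these positions, bases and peaks were counted by overlap of at least 1 bp on 19 autosomes, after 1 base was added to SICER ends, in Python 3.11.15 (numpy 2.4.6, scipy 1.17.1). Random placement was computed from the positions and not by drawing. Bases used the product of covered fractions of non-N sequence, and peaks the exact share of all N-free positions of the same width that touch a region. Within the classes of distance to a start, the median width of each mark stood in for the widths of its peaks. The placement values of those classes, and the weighted ones, are therefore approximate. Shares carry Wilson 95% intervals. The interval arithmetic was tested on simulated data. Transcription starts were the outermost ones of protein-coding genes in GENCODE M1 (same build), with 1 kb on each side. Sequences and CpG content came from the same genome. RefSeq (GRCm38) served for older symbols only.

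The marks crossed, gene lists and rules for named genes were chosen with earlier results of these data known. Named were the 10 genes with the widest H3K27ac peak wholly inside H3K27me3 within 1 kb of a covered start, the 5 regions with most H3K27ac peaks wholly inside, the 5 widest regions without activating peaks and the widest region, and per list up to 4 members with the widest H3K27ac peak in covered parts and up to 2 covered members without one. Some genes that these rules select are not reported here. Other genes were named after their values were seen: examples within lists that were cited for contrast. Alternatives changed the overlap rule, chromosomes, merging, peak and region sizes, region edges, start windows and the placement space. No comparison with another group was made.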

Additional observations from a re-analysis of the deposited data

How the results depend on the processing

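Of 35 alternatives, 11 kept their value within its interval or, for counts of genes, within 1.5 times, 23 moved and 1 turned its direction. The H3K27ac share in H3K27me3 (34.1%) was 33.5% with at least 50% of the peak inside, 32.9% with the whole peak inside, 33.6% with the X chromosome, 35.1% with peaks within 1 kb merged, 33.5% for the widest 50% of peaks and 29.6% with regions shortened by 2400 bp at each end. For H3K4me1 (40.3%) the values were 39.8%, 39.2%, 40.9%, 43.4% and 36.1% in that order, the X chromosome left out because it gave 39.9%, within the interval. Regions with H3K27ac (41.5%) were 40.4% with whole peaks, 37.5% when shortened and 31.2% for the widest 50% of peaks, and those with H3K4me1 (55.4%) were 54.5%, 51.6% and 44.6%. H3K4me1 lay within 1 kb of 78.1% of the H3K27ac peaks inside. All 3 marks together were 27.7 times the expectation by chromosome and 31.9 times over full chromosome length. The H3K27ac share over expectation reversed from 1.08 to 0.978 when placement kept the distance class to a start. Merging moved median H3K27ac widths to 668 bp inside and 776 bp outside, and 28.7% of H3K27ac peaks inside lay within 2.5 kb of a start. Genes with H3K27ac at a covered start numbered 3697 to 4267, against 3822. No paired analysis was possible because the livers were pooled before peaks were called, and for the same reason no liver could be left out. The cause of these shifts was not tested.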

Other observations

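The X chromosome lay outside the rule that chose the peaks. It held 33 H3K27me3 regions that covered 0.338% of its bases, with a median width of 14400.0 bp, against 31.3% of the autosomal bases. Its activating peaks were also sparse, with 848 for H3K27ac (0.303% of bases) and 729 for H3K4me1 (0.184%). Of these, 3 H3K27ac and 46 H3K4me1 peaks overlapped an H3K27me3 region. Mapping and calling on this chromosome were not tested.

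Across the 19 autosomes, the share of bases in H3K27me3 ranged from 24.1 to 43.8% and moved with the number of protein-coding starts per Mb (Pearson r = 0.735 and Spearman rho = 0.705, a description over chromosomes of 1 pooled list, which share depth and threshold). The H3K27ac share in H3K27me3 ranged from 28.9 to 41.5% over the autosomes and the H3K4me1 share from 35.1 to 46.3%.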
